A study of Homo sapiens with 9 samples.

Results

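The genes described here encode enzymes that methylate histone H3 on lysine 4 or lysine 79 and the proteins that hold the lysine 4 enzymes together: SETD1A, SETD1B, KMT2A, KMT2D, WDR5, ASH2L, RBBP5, DPY30, MEN1 and DOT1L. They were taken by symbol from the deposited table of normalized counts, keeping the row on a primary chromosome, which gave 10 of the 63677 genes in the table. For KMT2A this left out a row on an alternate sequence patch, which is listed at 0. All 10 passed the filter on low values, a mean of at least 10 normalized counts over the 9 libraries, as did 17663 genes in all.

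Polyadenylated RNA was sequenced from HCT116, a human colon cancer cell line, 48 hours after transfection of an siRNA, a short RNA that silences a chosen gene. Wild-type HCT116 cells were sampled in 3 groups of 3 replicates, 9 libraries in all: a control siRNA (siControl), an siRNA against RNF40 (siRNF40) and an siRNA against TG2, the product of TGM2 (siTG2). All groups share the transfection reagent and the cell line, and each knockdown is labelled with a single siRNA name. Whether the replicates are separate cultures is not stated in the labels. The tests therefore weigh a difference against the spread of these libraries, which may be technical.

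Methylation of lysine 4 on histone H3 marks active promoters and enhancers, and it is laid down by enzymes that work only as part of a complex. SETD1A and SETD1B, KMT2A and KMT2B, and KMT2C and KMT2D each assemble on a shared core of WDR5, RBBP5, ASH2L and DPY30, and menin, the product of MEN1, joins only the KMT2A and KMT2B forms. Methylation of lysine 79 lies in transcribed gene bodies and is made by a single enzyme without a SET domain, DOT1L. RNF20 and RNF40 form the ligase that puts ubiquitin on histone H2B, a mark known to stimulate both kinds of methylation, while TG2 can attach serotonin to the glutamine next to lysine 4, a position near the peptide that WDR5 binds. The measurements here are mRNA levels of these genes, not the marks or the proteins.

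Between 29161285 and 35743918 reads fell in genes per library, and between 677 and 8389 reads per library in any of the 10 genes. The siTG2 libraries had reads in 27123 to 27602 genes, against 25162 to 25548 in the other 6, and a summed normalized count of 2.88e+07 to 2.95e+07 against 3.21e+07 to 3.32e+07. RNF40 fell from a mean of 2784 normalized counts in siControl to 520.1 in siRNF40, which left 18.7%, and TGM2 fell from 604.9 to 111.8 in siTG2, which left 18.5%. Both drops passed limma with adjustment over all genes (adjusted p = 5.3e-13 and 1.1e-07), and an exact two-sided permutation test over the libraries gave 0.1 for each, the smallest p that 3 against 3 can reach. RNF20, the partner of RNF40, stood at a log2 fold change of -0.10 in siRNF40 (adjusted p = 0.32). The epithelial markers EPCAM, KRT8, KRT18, KRT19, CDH1 and CLDN4 were present in every group. Their summed normalized count was 92201 to 101230 in siControl, 136350 to 163960 in siRNF40, where all 6 passed the test as higher, and 83451 to 94456 in siTG2, where 3 passed as lower. Of 5 fibroblast markers only COL1A1 exceeded a mean of 10 (888.8 in siControl, 1463 in siRNF40 and 1050 in siTG2), with DCN and LUM at 0 in every group. The summed fibroblast list was 793.35 to 967.08, 1340.2 to 1664 and 975.42 to 1153.6. Of 5 blood cell markers CD3E was at 0 throughout, and the summed list was 3.7962 to 14.462, 1.8498 to 12.808 and 18.57 to 45.222 in the same order. The part of these shifts in the results below was not tested. In bulk RNA, fewer cells of a type and less RNA per cell cannot be told apart.

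Fold changes are given on the scale of log2(normalized count + 1) with their standard error (SE), and a gene is said to have risen or fallen where limma's adjusted p, over all 17663 genes, was under 0.05. In siRNF40, DOT1L, DPY30 and MEN1 rose and RBBP5 fell, and the other 6 genes did not pass. In siTG2, DOT1L, WDR5, ASH2L and SETD1A fell and KMT2A rose, and the other 5 did not pass. DOT1L alone passed in both knockdowns, and it went in opposite directions. For the background, 21.7% of all tested genes rose and 23.6% fell in siRNF40, and 12.8% rose and 18.5% fell in siTG2. The 3 that rose and 1 that fell among 10 in siRNF40 lie near that background, and the 4 that fell in siTG2 lie above it. That background is not matched for level: it reaches down to a mean of 10, and the lowest mean of the 10 genes was 997.6. Of the 13545 genes with a mean of at least 50, 3641 rose and 4007 fell in siRNF40, and 2041 and 3323 in siTG2. The 10 genes were also chosen with earlier results of these data known. The median log2 fold change over the 10 genes was 0.0634 in siRNF40 against 0.0163 over all genes, and -0.163 in siTG2 against -0.00685. The median size of a change without regard to sign was 0.205 against 0.38 over all genes in siRNF40, and 0.257 against 0.277 in siTG2.

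**Figure D1:**
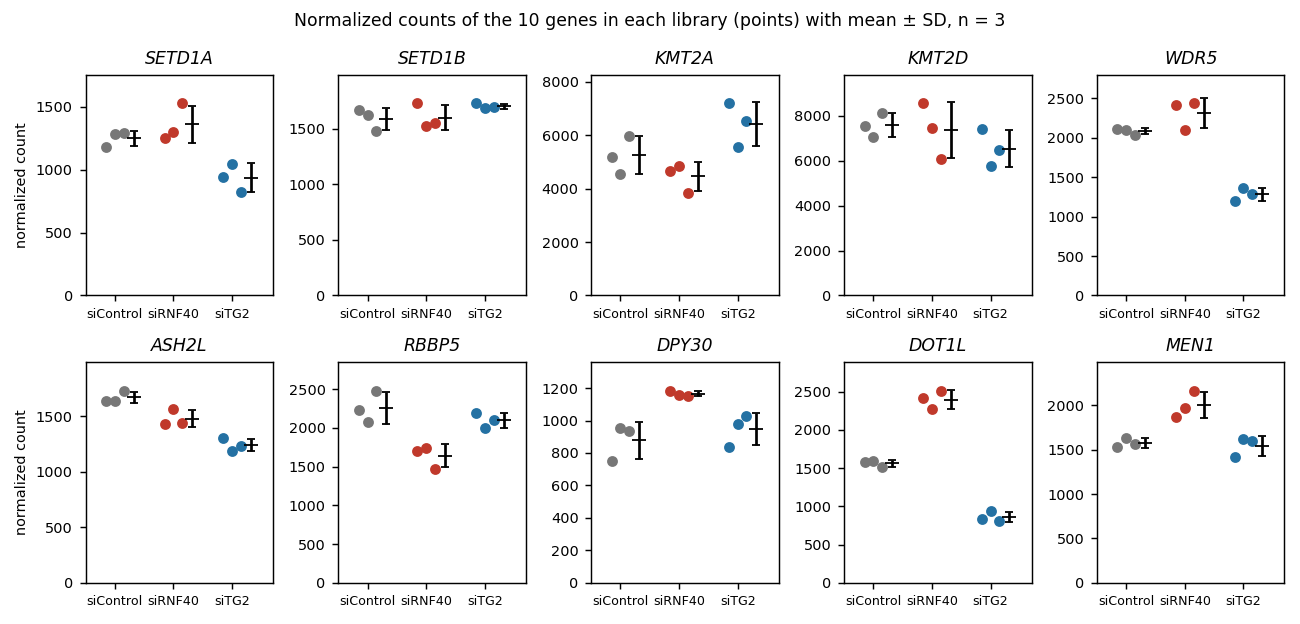
Normalized counts of the 10 genes in each of the 9 libraries, with a panel per gene, points for single libraries and, beside them, the group mean ± SD on an axis from 0. DOT1L is highest in all 3 siRNF40 libraries and lowest in all 3 siTG2 libraries, and WDR5 is lowest in the siTG2 libraries.

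**Figure D2:**
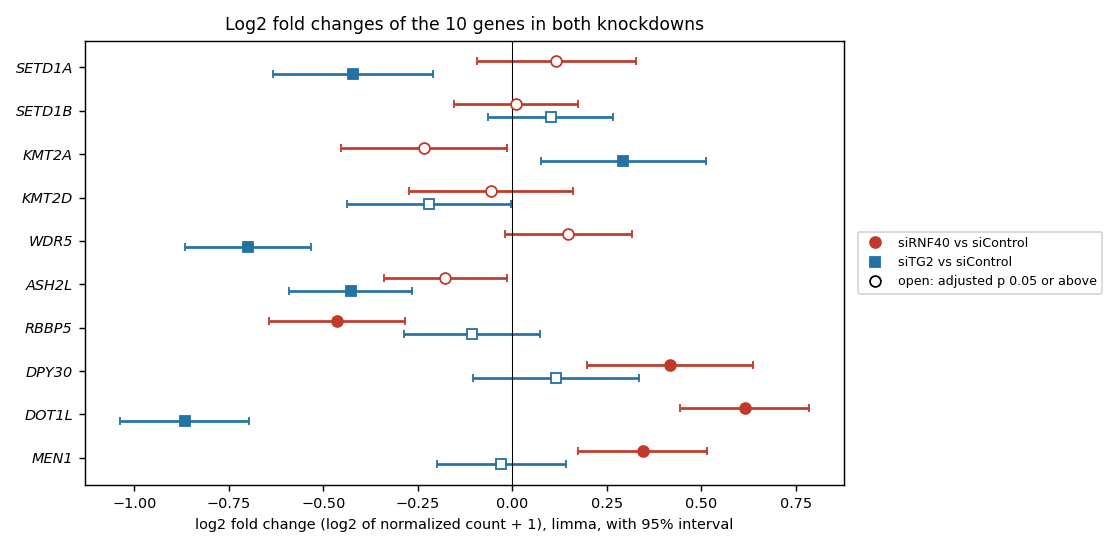
Log2 fold changes of the 10 genes against siControl with 95% confidence intervals from limma, for siRNF40 (circles) and siTG2 (squares), filled where the adjusted p was under 0.05. The interval of DOT1L lies above 0 in siRNF40 and below 0 in siTG2.

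DOT1L, the lysine 79 methyltransferase, lies on chromosome 19 (hg19, 2164148 to 2232577, plus strand; ENSG00000104885). Its normalized counts were 1586, 1595 and 1514 in siControl, 2413, 2269 and 2515 in siRNF40, and 834.7, 938 and 805.4 in siTG2. No library of a group reached into another group: siRNF40 was highest throughout and siTG2 lowest throughout. The mean rose from 1565 ± 44.3 (SD, n = 3) to 2399 ± 124 in siRNF40, 153% of the control level, and fell to 859.4 ± 69.7 in siTG2, or 54.9%. The log2 fold changes were 0.61 (SE 0.081, adjusted p = 5.1e-06 by limma) and -0.87 (SE 0.081, adjusted p = 1.6e-07 by limma), the largest of the 10 genes in each comparison. Set directly against siTG2, siRNF40 was higher by 1.48 (SE 0.081, adjusted p = 3.1e-11). Over 19 alternatives, which include leaving out each of the 9 libraries, the change ranged from 0.58 to 0.674 in siRNF40 and from -0.932 to -0.724 in siTG2. It passed in each. Several of them, such as a fit of 6 libraries or a replicate block, cannot move the fold change and bear only on its error.

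DOT1L overlaps 2 protein-coding genes on the opposite strand, AP3D1 and PLEKHJ1, and whether the authors counted reads by strand is not given in the sources used here. AP3D1 had a log2 fold change of 0.105 in siRNF40 (adjusted p = 0.24) and fell by 0.468 in siTG2 (adjusted p = 4.8e-05). PLEKHJ1 rose by 0.406 (adjusted p = 0.0021) and fell by 0.384 (adjusted p = 0.0053). Of all tested genes, those with the profile most like that of DOT1L over the 9 libraries, by Pearson's r of log2 values, were MFGE8 (r = 0.998), MYEOV (0.997) and EMC10 (0.997). The libraries fall into 3 groups, so such an r describes mainly a shared order of group levels. MFGE8 had log2 fold changes of 0.557 and -0.841 in siRNF40 and siTG2, MYEOV 0.492 and -0.698, and EMC10 0.419 and -0.696.

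The transcripts were also searched for short words that go with lower levels. A search of 16174 words of 7 bases covered the 3′ untranslated regions (UTRs) of 12821 tested protein-coding genes. It used GENCODE 29 transcripts on the sense strand. Words were ranked by the log2 fold change of the genes that hold them against the rest, relative to its error. That difference was adjusted by regression for the length and GC content of the 3′UTR. The word with the most negative value in siTG2 was GCGCCCT, held by 2.77% of 3′UTRs. Of the 355 genes that hold it there 40% fell, against 22.6% of the 12466 that do not, both without that adjustment. The word was picked in this comparison, so the difference follows in part from that choice. Of the 4 genes that fell in siTG2, DOT1L, WDR5 and SETD1A hold it somewhere in the transcript and ASH2L does not. KMT2A, which rose, and KMT2D, which did not pass, hold it too, at sites not shown. In the 3′UTR, where the word was picked, it lies in DOT1L, WDR5 and KMT2D but not in SETD1A. Anywhere in the transcript it is found in 16% of genes, a share not matched for transcript length. The sites are shown because they lie in 3 of the 4 members that fell, with the word in capitals and the position in the transcript counted from its 5′ end.

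DOT1L, coding, bases 2066 to 2072: tgggaaggGCGCCCTgggccgcg
DOT1L, 3′UTR, bases 5207 to 5213: cttcctgaGCGCCCTggcgcctg
DOT1L, 3′UTR, bases 5290 to 5296: cgtgggttGCGCCCTtgcatgtg
WDR5, 3′UTR, bases 2182 to 2188: ggactcatGCGCCCTatgagggc
SETD1A, coding, bases 4547 to 4553: gaggccgaGCGCCCTaggcccct
SETD1A, coding, bases 4846 to 4852: tggggaggGCGCCCTccggaggc

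TGM2 itself holds 1 copy. The same search in siRNF40 gave GTCTTCA, held by 12.4% of 3′UTRs. Of 1585 genes that hold it there 54.3% fell, against 25.7% of 11236 without it, again not adjusted for 3′UTR length or GC content. RNF40 holds 3 copies of GTCTTCA. RBBP5, the gene of the 10 that fell in siRNF40, holds none, whereas KMT2A holds 2 in its coding sequence and 1 in its 3′UTR and KMT2D holds 4 in its coding sequence. Among the genes followed below, MLLT1, KDM5B, PHF13, HOXA10, KMT5B and SETD7, which fell in siRNF40, each hold 1 copy of GTCTTCA in the 3′UTR. WDR82, which fell too, holds 2. KDM5A and UBE2B hold 1 there and did not pass. EZH2, SPIN1, UBE2A, CDC73, WAC, SUV39H1, CDKN2C, ING2, KDM1B, KDM6A, HCFC1 and BOD1L1, which fell, hold none there. Most of the listed genes that fell in siRNF40 hold none in the 3′UTR. The word was picked in this comparison, so copies in genes that fell follow in part from that choice. PHF13, KMT5B and SETD7 are named here outside the naming rule, and the SETD7 call ended in 3 of the 19 alternatives. The sequences of the siRNAs were not analysed here, and the part of either word in the changes was not tested.

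Among the core subunits, WDR5, a propeller-shaped adaptor that binds the enzymes and the tail of histone H3, showed the largest change (hg19, chromosome 9, 137000487 to 137025093, plus strand; ENSG00000196363). Its normalized counts were 2107, 2103 and 2041 in siControl, 2415, 2092 and 2436 in siRNF40, and 1200, 1362 and 1290 in siTG2. All 3 siTG2 libraries lay below every other library, while siRNF40 replicate 2 lay within the control range. The mean fell from 2084 ± 36.9 (SD, n = 3) to 1284 ± 81.1 in siTG2, 61.6% of the control, with a log2 fold change of -0.70 (SE 0.080, adjusted p = 2e-06 by limma). In siRNF40 the mean was 2314 ± 193 and the log2 fold change 0.15 (95% interval -0.02 to 0.32, adjusted p = 0.14). It passed in 2 of the 19 alternatives, without siRNF40 replicate 2 (0.219, adjusted p = 0.036) and with quantile normalization (0.21, adjusted p = 0.04).

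ASH2L, which with RBBP5 activates the SET domain of the enzymes, lies on chromosome 8 (hg19, 37962760 to 38001594, plus strand; ENSG00000129691). Its counts were 1640, 1640 and 1731 in siControl, 1426, 1568 and 1441 in siRNF40, and 1301, 1191 and 1233 in siTG2. The groups do not overlap and stand in the order siControl, siRNF40 and siTG2, from highest to lowest. The mean was 1670 ± 52.8 (SD, n = 3) in siControl and 1242 ± 55.3 in siTG2, and the log2 fold change in siTG2 was -0.43 (SE 0.078, adjusted p = 0.00032 by limma). The log2 fold change in siRNF40, with a mean of 1478 ± 78, was -0.18 (95% interval -0.34 to -0.01) and missed the threshold with an adjusted p of 0.071. It passed in 2 of the 19 alternatives, without siRNF40 replicate 2 (-0.22, adjusted p = 0.04) and with equal totals (-0.21, adjusted p = 0.037), and was -0.107 with quantile normalization (adjusted p = 0.29).

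RBBP5, which bridges the enzyme and ASH2L, changed in the other knockdown (hg19, chromosome 1, 205055270 to 205091143, minus strand; ENSG00000117222). The siControl libraries held 2224, 2073 and 2480 normalized counts, the siRNF40 libraries 1706, 1743 and 1468, and the siTG2 libraries 2186, 1997 and 2101. All siRNF40 libraries lay below all others, and siTG2 overlapped siControl. The fall from 2259 ± 206 (SD, n = 3) to 1639 ± 149 left 72.5% of the control, a log2 fold change of -0.46 (SE 0.086, adjusted p = 0.0002 by limma). In siTG2 the mean was 2095 ± 94.8 and the log2 fold change -0.11 (95% interval -0.29 to 0.07, adjusted p = 0.38).

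DPY30, the smallest subunit, which docks on ASH2L, rose in siRNF40 (hg19, chromosome 2, 32092878 to 32264881, minus strand; ENSG00000162961). It had 747.6, 950.9 and 934.9 normalized counts in siControl, 1184, 1160 and 1154 in siRNF40, and 837.5, 980.2 and 1029 in siTG2. The siRNF40 libraries were close together and above all others, whereas siControl replicate 1 stood below the other controls. The mean rose from 877.8 ± 113 (SD, n = 3) to 1166 ± 16, or 133%, with a log2 fold change of 0.42 (SE 0.10, adjusted p = 0.003 by limma). In siTG2 it was 949 ± 99.6, a log2 fold change of 0.12 (95% interval -0.10 to 0.33, adjusted p = 0.44). The annotated span of DPY30 overlaps MEMO1 on the same strand, which had a mean of 131 normalized counts in siControl and a log2 fold change of 0.288 in siRNF40 (adjusted p = 0.26).

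Of the core genes, DPY30 rose and RBBP5 fell in siRNF40, and in siTG2 WDR5 and ASH2L fell while RBBP5 and DPY30 did not pass. The differences between core genes within a knockdown were not themselves tested.

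MEN1 encodes menin, the scaffold that ties KMT2A and KMT2B to chromatin and is lost in an inherited endocrine tumour syndrome (hg19, chromosome 11, 64570982 to 64578766, minus strand; ENSG00000133895). Its normalized counts were 1527, 1635 and 1564 in siControl, 1874, 1974 and 2167 in siRNF40, and 1418, 1626 and 1595 in siTG2. Every siRNF40 library lay above every other library, and siTG2 overlapped siControl. The mean rose from 1575 ± 54.9 (SD, n = 3) to 2005 ± 149, 127% of the control, a log2 fold change of 0.35 (SE 0.081, adjusted p = 0.0018 by limma). In siTG2 the mean was 1546 ± 112 and the log2 fold change -0.03 (95% interval -0.20 to 0.14, adjusted p = 0.83).

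Of the 4 catalytic subunits, SETD1A, which carries out much of the trimethylation of lysine 4 at promoters, fell in siTG2 (hg19, chromosome 16, 30968615 to 30996437, plus strand; ENSG00000099381). Its counts were 1179, 1280 and 1288 in siControl, 1252, 1298 and 1526 in siRNF40, and 942.1, 1046 and 821 in siTG2. The siTG2 libraries lay below all others, and siRNF40 overlapped siControl. The mean was 1249 ± 60.6 (SD, n = 3) in siControl and 936.4 ± 113 in siTG2, 75.0% of the control, a log2 fold change of -0.42 (SE 0.10, adjusted p = 0.0033 by limma). The siRNF40 mean was 1359 ± 147, with a log2 fold change of 0.12 (95% interval -0.09 to 0.33, adjusted p = 0.37).

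SETD1B, its paralog, did not pass in either knockdown (hg19, chromosome 12, 122242086 to 122270562, plus strand; ENSG00000139718). It had 1669, 1620 and 1480 normalized counts in siControl, 1729, 1527 and 1548 in siRNF40, and 1728, 1687 and 1697 in siTG2. The siTG2 libraries all lay above the highest control, and siRNF40 overlapped the control range. The log2 fold changes were 0.01 in siRNF40 (95% interval -0.16 to 0.17, adjusted p = 0.93) and 0.10 in siTG2 (95% interval -0.06 to 0.27, adjusted p = 0.36). With libraries set to equal totals the siTG2 change was 0.245, which passed (adjusted p = 0.022), as it did after quantile normalization (0.22, adjusted p = 0.041).

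KMT2A, the enzyme that keeps HOX genes active and is rearranged in leukaemia, rose in siTG2 (hg19, chromosome 11, 118307205 to 118397539, plus strand; ENSG00000118058). Its counts were 5188, 4563 and 5981 in siControl, 4670, 4849 and 3848 in siRNF40, and 7188, 5548 and 6544 in siTG2. Replicate 2 of siTG2 lay inside the control range, and siRNF40 also overlapped that range. The means were 5244 ± 711 (SD, n = 3), 4456 ± 534 and 6427 ± 827, and the log2 fold change in siTG2 was 0.29 (SE 0.10, adjusted p = 0.038 by limma). Over the alternatives its adjusted p ranged from 0.0012 to 0.21. The call ended without siControl replicate 1 (0.291, adjusted p = 0.098), siControl replicate 2 (0.198, adjusted p = 0.21), siTG2 replicate 1 (0.209, adjusted p = 0.18) or siTG2 replicate 3 (0.277, adjusted p = 0.11), and when no filter on low values was used (0.294, adjusted p = 0.072). In siRNF40 the log2 fold change was -0.23 (95% interval -0.45 to -0.02) with an adjusted p of 0.076, and it passed without siControl replicate 2 (-0.329, adjusted p = 0.023), siRNF40 replicate 2 (-0.298, adjusted p = 0.046) or siTG2 replicate 2 (-0.233, adjusted p = 0.047) and with equal totals (-0.267, adjusted p = 0.043).

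KMT2D, the enzyme that adds monomethylation at enhancers, did not pass in either knockdown (hg19, chromosome 12, 49412758 to 49453557, minus strand; ENSG00000167548). Its counts were 7561, 7061 and 8142 in siControl, 8555, 7454 and 6067 in siRNF40, and 7400, 5743 and 6476 in siTG2. The 3 groups overlap, and siRNF40 spans the control range on both sides. The log2 fold changes were -0.06 in siRNF40 (95% interval -0.27 to 0.16, adjusted p = 0.69) and -0.22 in siTG2 (95% interval -0.44 to -0.003, adjusted p = 0.12). In siTG2 the change passed in 3 alternatives: a fit of the siTG2 and siControl libraries alone (adjusted p = 0.032), without siRNF40 replicate 3 (adjusted p = 0.037) and without siTG2 replicate 1 (-0.313, adjusted p = 0.036). It shrank to -0.0767 with equal totals (adjusted p = 0.6) and to -0.0244 with quantile normalization (adjusted p = 0.88). PRKAG1, which overlaps KMT2D on the same strand, fell by 0.307 in siTG2 (adjusted p = 0.0039).

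The promoters of SETD1A and RBBP5 are shown because each gene fell in a different knockdown and has a single start in the RefSeq promoter table (GRCh38.p14), which gives a window of 300 bases around the start, most of it upstream. Capitals mark GGGCGG or its reverse complement CCGCCC, the word bound by SP1-type factors, searched on both strands with overlapping matches counted.

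SETD1A, chr16:30957504-30957803, plus strand: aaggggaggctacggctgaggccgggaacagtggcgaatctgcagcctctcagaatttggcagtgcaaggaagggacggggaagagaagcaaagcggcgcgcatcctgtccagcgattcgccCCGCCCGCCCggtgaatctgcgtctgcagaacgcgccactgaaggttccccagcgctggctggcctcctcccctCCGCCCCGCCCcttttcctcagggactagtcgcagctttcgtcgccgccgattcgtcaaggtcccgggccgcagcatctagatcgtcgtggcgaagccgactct
RBBP5, chr1:205121929-205122228, minus strand: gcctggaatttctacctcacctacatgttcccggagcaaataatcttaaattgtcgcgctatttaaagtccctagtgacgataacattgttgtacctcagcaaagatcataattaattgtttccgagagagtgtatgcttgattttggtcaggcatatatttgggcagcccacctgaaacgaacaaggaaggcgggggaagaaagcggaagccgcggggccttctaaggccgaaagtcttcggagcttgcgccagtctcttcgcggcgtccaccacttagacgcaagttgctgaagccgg

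The SETD1A window holds 4 matches to GGGCGG and the RBBP5 window 0, and 45% of the 35116 promoters in the table hold at least 1. The SETD1A window has 30 CG pairs, more than 77.6% of promoters, and a GC content of 65%, and the RBBP5 window has 18 CG pairs, more than 55.5%, and a GC content of 49.3%. Neither holds CCAAT, found in 34.6% of promoters on either strand, or CACGTG, found in 7.26%. A match describes the letters of the window only.

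Levels can be compared between genes only per length, here as normalized counts per kilobase of exon in GENCODE 29. The gene positions deposited with the counts are those of hg19, so lengths and counts come from different annotations. For DPY30 the exon length was 848 bases, whereas its deposited span is 172 kb and overlaps MEMO1 on the same strand. In siControl DPY30 had the highest level, 1035 per kilobase (library range 881.6 to 1121), followed by WDR5 at 661.3 (647.8 to 668.7), RBBP5 at 512.9 (470.6 to 563.2) and ASH2L at 470.3 (461.7 to 487.4). MEN1 followed at 416.2 (403.5 to 432), KMT2D at 390.8 (363.6 to 419.3) and KMT2A at 315.4 (274.4 to 359.7). DOT1L at 210.5 (203.7 to 214.5), SETD1A at 193.7 (182.8 to 199.7) and SETD1B at 191.2 (178 to 200.7) were lowest. The 4 core genes thus stood above menin and the enzymes, as a description of these libraries. RBBP5 and ASH2L overlapped in range, as did MEN1 and KMT2D, and SETD1A and SETD1B, so their order within each pair is not fixed. In siTG2 WDR5 moved from rank 2 to rank 4 at 407.5 per kilobase and DOT1L from rank 8 to rank 10 at 115.6, while KMT2A moved from rank 7 to rank 5 at 386.5. In siRNF40 RBBP5 moved from rank 3 to rank 6 at 372.1, MEN1 from rank 5 to rank 3 at 529.7 and DOT1L from rank 8 to rank 7 at 322.6. Several of these ranks are not fixed: in siTG2 the library ranges of WDR5 (380.9 to 432.3), MEN1 (374.6 to 429.6) and KMT2A (333.6 to 432.3) overlap, and in siRNF40 those of RBBP5 (333.2 to 395.7), KMT2D (312.4 to 440.6) and DOT1L (305.1 to 338.2).

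**Figure D3:**
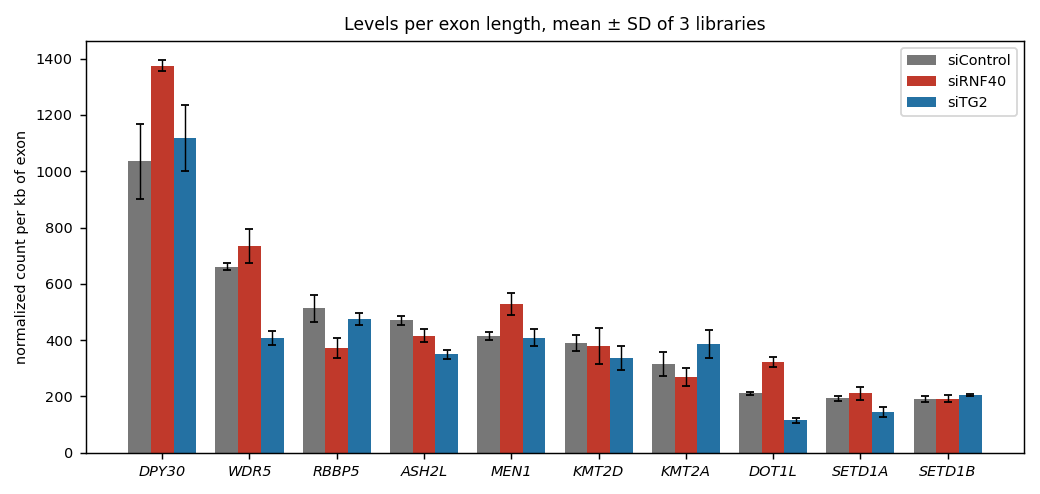
Normalized counts per kilobase of exon for the 10 genes in the 3 groups, as bars from 0 for the mean and error bars for the SD of 3 libraries, with genes in the order of their siControl mean. The core subunits DPY30, WDR5, RBBP5 and ASH2L stand highest in siControl, and DOT1L lies above SETD1A and SETD1B in siRNF40 and below both in siTG2.

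Compared directly, 6 of the 10 genes were higher in siRNF40 than in siTG2 and 2 were lower, where 26.6% of all tested genes were higher and 26.6% lower. DOT1L, WDR5 (log2 difference 0.85, adjusted p = 4.4e-08 by limma), SETD1A (0.54, adjusted p = 0.00016), MEN1 (0.37, adjusted p = 0.0007), DPY30 (0.30, adjusted p = 0.02) and ASH2L (0.25, adjusted p = 0.011) were higher in siRNF40. KMT2A (-0.53, adjusted p = 0.00028) and RBBP5 (-0.36, adjusted p = 0.0016) were lower. The 95% interval of the difference was -0.26 to 0.07 for SETD1B and -0.05 to 0.38 for KMT2D. With equal totals ASH2L (0.0746, adjusted p = 0.45) and DPY30 (0.126, adjusted p = 0.31) no longer passed and SETD1B did (-0.268, adjusted p = 0.007), which made 4 higher and 3 lower. Under that scaling 3278 of all 17663 tested genes were higher and 6324 lower. KMT2D passed without siRNF40 replicate 3 (0.296, adjusted p = 0.0085). DPY30 also failed without siRNF40 replicate 1 (0.291, adjusted p = 0.054) or siTG2 replicate 1 (0.215, adjusted p = 0.12).

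The other subunits of these complexes were followed as a list of 13 genes. Beside the counts of this and the later lists stand the shares over all tested genes. In siRNF40 21.7% rose and 23.6% fell, and in siTG2 12.8% rose and 18.5% fell. In siRNF40 1 rose and 6 fell, with a median log2 fold change of -0.224. In siTG2 1 rose and 4 fell, with a median of -0.114, against -0.00685 over all genes. That siTG2 median was 0.029 with equal totals, against 0.135 over all genes. WDR82, the subunit that links SETD1A and SETD1B to RNA polymerase II, had 8318, 8199 and 8144 normalized counts in siControl and 2898, 2987 and 2819 in siRNF40, and fell by 1.502 on the log2 scale (SE 0.061, adjusted p = 1.1e-12 by limma). Its siTG2 libraries held 7560, 7124 and 7855, a log2 fold change of -0.13 that did not pass (adjusted p = 0.11). WDR82 has 2 copies of GTCTTCA, the word picked in this same comparison, in its 3′UTR, whereas KDM6A and HCFC1 hold none and BOD1L1 holds 2 in its coding sequence only. BOD1L1, a SETD1A partner (-0.54, adjusted p = 0.00096), KDM6A, the lysine 27 demethylase of the KMT2C and KMT2D complexes (-0.51, adjusted p = 2.7e-05), and HCFC1 (-0.38, adjusted p = 0.00017) fell in siRNF40 as well. In siTG2 PSIP1, which tethers menin and KMT2A to chromatin, fell from 7582, 7674 and 7665 to 5391, 5403 and 5579 (-0.49, adjusted p = 7.5e-06). CXXC1, the CpG-binding subunit of the SETD1 complexes (-0.47, adjusted p = 0.0026), and NCOA6 (-0.35, adjusted p = 0.0017) fell too. PAGR1 rose (0.67, adjusted p = 0.017), but this call ended without siControl replicate 1, siTG2 replicate 1 or siTG2 replicate 2 and with quantile normalization (highest adjusted p = 0.08). Outside the naming rule and chosen after the values were seen, BOD1, the gene of the list that rose in siRNF40 (0.32, adjusted p = 0.00087), fell in siTG2 (-0.32, adjusted p = 0.0015, but 0.055 with equal totals). The remaining falls in siRNF40 were those of PSIP1 (-0.30, adjusted p = 0.00058) and KMT2C (-0.35, adjusted p = 0.048), and the KMT2C call ended in 9 of the 19 alternatives (highest adjusted p = 0.23), among them those without siControl or siRNF40 replicate 1 or 3 or siTG2 replicate 3.

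Of 4 partner proteins of DOT1L, MLLT1 fell in siRNF40 from 963, 858.9 and 891.5 to 551.7, 579.9 and 672.4 (-0.59, SE 0.12, adjusted p = 0.00046 by limma). MLLT3 rose in siTG2 from 85.03, 96.8 and 67.15 to 141.3, 176 and 151.5 (0.91, SE 0.23, adjusted p = 0.0043 by limma). Both are YEATS-domain readers of acylated histones that bring DOT1L to chromatin. The list thus had 0 higher and 1 lower in siRNF40 (all tested genes: 21.7% and 23.6%), and 1 higher and 0 lower in siTG2 (12.8% and 18.5%). In siTG2 2 were higher with equal totals and with quantile normalization, and 1 was lower, beside 1 higher, without siTG2 replicate 2. Of all 17663 tested genes, 3872 rose with equal totals and 2594 with quantile normalization. Without siTG2 replicate 2, 1807 of them rose and 3009 fell.

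Of 11 genes of the H2B ubiquitin ligase and the PAF1 complex, 1 rose and 5 fell in siRNF40, with RNF40 itself among them. The shares over all tested genes were 21.7% and 23.6%. CDC73, a PAF1 complex subunit, went from 3068, 2819 and 2970 to 1663, 1632 and 1293 (-0.96, adjusted p = 1.1e-07), UBE2A, the ubiquitin-conjugating enzyme that works with RNF20 and RNF40, from 2540, 2727 and 2541 to 1468, 1717 and 1619 (-0.70, adjusted p = 3.1e-07), and WAC fell by 0.41 (adjusted p = 0.00017). In siTG2 CTR9 rose (0.22, adjusted p = 0.027) and RNF40 fell (-0.27, adjusted p = 0.019). Each of these siTG2 calls ended in 6 of the 19 alternatives, with a highest adjusted p of 0.079 for CTR9 and 0.26 for RNF40. For RNF40 they were equal totals, quantile normalization, and leaving out siControl replicate 1 or 2 or siTG2 replicate 1 or 3. For CTR9 they were the unfiltered table and leaving out any siControl replicate or siTG2 replicate 2 or 3. Outside the naming rule, PAF1 rose in siRNF40 (0.25, adjusted p = 0.013) and CTR9 fell (-0.22, adjusted p = 0.022). The PAF1 call ended without siControl replicate 1 or siRNF40 replicate 3, and the CTR9 call without siControl or siRNF40 replicate 1 or 3 and with quantile normalization (highest adjusted p = 0.067 and 0.11).

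Of 5 demethylases of lysine 4, 2 rose and 2 fell in siRNF40 (all tested genes: 21.7% and 23.6%), and 1 rose in siTG2 (12.8%). KDM5B, which removes trimethylation, held 3106, 3198 and 3303 normalized counts in siControl, 2207, 2472 and 2246 in siRNF40 and 4293, 4030 and 4275 in siTG2. Its groups do not overlap, and it fell by 0.47 in siRNF40 (adjusted p = 1.3e-05) and rose by 0.39 in siTG2 (adjusted p = 0.00021). KDM5C (0.38, adjusted p = 3.3e-05) and KDM1A (0.29, adjusted p = 0.00062) rose and KDM1B (-0.30, adjusted p = 0.0092) fell in siRNF40. With equal totals 3 of the 5 rose in siTG2, where 3872 of all 17663 tested genes rose.

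Of 14 readers of lysine 4 methylation, 2 rose and 6 fell in siRNF40 (all tested genes: 21.7% and 23.6%). In siTG2 4 rose and 2 fell (12.8% and 18.5%). The list's median in siTG2 was -0.0333, against -0.00685 over all genes. It was 0.11 with equal totals, against 0.135 over all genes. SPIN1 went from 5727, 5299 and 5719 in siControl to 2773, 3085 and 2633 in siRNF40 (-0.98, adjusted p = 1.6e-09), and ING2 fell (-0.61, adjusted p = 0.032), a call that ended without siControl replicate 1 or 2 or siRNF40 replicate 1 or 3 and with no filter (highest adjusted p = 0.14). SGF29 (0.78, adjusted p = 0.0021) and ING4 (0.73, adjusted p = 0.00022) rose in siRNF40. TAF3, the TFIID subunit that reads trimethylated lysine 4, went from 756.5, 715.6 and 764.4 to 425.8, 373.1 and 481.8 in siTG2 (-0.81, adjusted p = 2.7e-05). ING4 (0.53, adjusted p = 0.0053) and DIDO1 (0.35, adjusted p = 0.0022) rose in siTG2. ING1 fell (-0.31, adjusted p = 0.0058), and did not pass with equal totals or quantile normalization. BPTF (0.22, adjusted p = 0.033) and SPIN1 (0.20, adjusted p = 0.036), named after their values were seen, rose in siTG2. Both calls ended without siControl replicate 1 or 2 or siTG2 replicate 1 or 3, with no filter and with the replicate block, and that of SPIN1 also without siControl replicate 3 (highest adjusted p = 0.15 and 0.16).

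A list of 9 genes known in other cell types to need KMT2A, menin or DOT1L held 8 tested genes, since MEIS1 was listed at 0 in every library. In siRNF40 1 rose and 2 fell (all tested genes: 21.7% and 23.6%), with a median of -0.104. In siTG2 5 rose and 1 fell (12.8% and 18.5%), with a median of 0.616 against -0.00685 over all genes. HOXA9 had 1417, 1524 and 1536 normalized counts in siControl, 1464, 1637 and 1658 in siRNF40 and 2625, 3088 and 2903 in siTG2. It rose by 0.94 in siTG2 (SE 0.081, adjusted p = 5.3e-08 by limma) and did not pass in siRNF40 (0.09, adjusted p = 0.41). HOXA10 had 269.5, 261 and 274.8 in siControl, 227.4, 160.9 and 165.4 in siRNF40 and 533.2, 582.5 and 460.3 in siTG2, so that its groups do not overlap. It rose by 0.96 in siTG2 (adjusted p = 8.8e-05) and fell by 0.56 in siRNF40 (adjusted p = 0.0059). PBX3 rose in siTG2 (0.69, adjusted p = 0.0022). CDKN2C, an inhibitor of the cell cycle, rose in siTG2 (0.79, adjusted p = 0.0099) and fell in siRNF40 (-0.72, adjusted p = 0.012). The first of these calls ended without siTG2 replicate 2 (highest adjusted p = 0.058) and the second without siRNF40 replicate 3 (highest adjusted p = 0.074). HOXA7 rose in siRNF40 (0.55, adjusted p = 0.023), a call that ended without siControl replicate 3 or siRNF40 replicate 3 (highest adjusted p = 0.13). MEF2C rose (0.54, adjusted p = 0.0084) and HOXA7 fell (-0.59, adjusted p = 0.022) in siTG2, both named after their values were seen. The MEF2C call ended without siControl replicate 1 (adjusted p = 0.052), and the HOXA7 call with equal totals or without siControl replicate 1 or 2 or siTG2 replicate 3 (highest adjusted p = 0.098).

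Of 19 other histone lysine methyltransferases, 4 rose and 11 fell in siRNF40 (all tested genes: 21.7% and 23.6%). In siTG2 2 rose and 4 fell, near the shares over all tested genes (12.8% and 18.5%). The medians were -0.335 and -0.065. With equal totals the latter was 0.0781, against 0.135 over all genes, and 5 rose and 1 fell. Under that scaling 3872 of all 17663 tested genes rose and 1890 fell. The lysine 27 enzymes went in opposite directions in siRNF40: EZH1 from 1144, 1238 and 1232 to 2110, 2238 and 2258 (0.87, adjusted p = 1e-07), and EZH2 from 3984, 3890 and 3824 to 2229, 2181 and 2136 (-0.84, adjusted p = 6e-09). KMT5C, a lysine 20 enzyme of histone H4 (0.81, adjusted p = 0.00027), rose and SUV39H1, a lysine 9 enzyme (-0.82, adjusted p = 0.0012), fell. In siTG2 EHMT2, a lysine 9 enzyme (0.52, adjusted p = 0.00033), rose and NSD2, a lysine 36 enzyme (-0.44, adjusted p = 2.8e-05), fell. SMYD3 rose (0.36, adjusted p = 0.017) and SETD7 fell (-0.29, adjusted p = 0.0046). The SMYD3 call ended without siControl replicate 1 or 3 or siTG2 replicate 2 or 3 (highest adjusted p = 0.078), and that of SETD7 with equal totals and quantile normalization (0.18). NSD1 (0.35, adjusted p = 0.0031) and EHMT1 (0.20, adjusted p = 0.028) in siRNF40, and NSD3 (-0.25, adjusted p = 0.0099) and KMT5A (-0.23, adjusted p = 0.011) in siTG2, were named after their values were seen. Larger falls in siRNF40 outside the rule were those of NSD2 (-0.75, adjusted p = 1.7e-08), SMYD3 (-0.65, adjusted p = 7.1e-05), NSD3 (-0.58, adjusted p = 1.8e-06) and SETD2 (-0.51, adjusted p = 7.4e-05), all of which passed in the 19 alternatives. The NSD1 call held in all 19 alternatives. The EHMT1 call ended without any siControl replicate or siRNF40 replicate 1, with equal totals and with no filter (0.099), that of NSD3 without siControl replicate 3 or siTG2 replicate 2 (0.33), that of KMT5A without siControl replicate 1 or siTG2 replicate 3 (0.49), and the latter 2 also under both scalings, each value being the highest adjusted p.

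**Figure D4:**
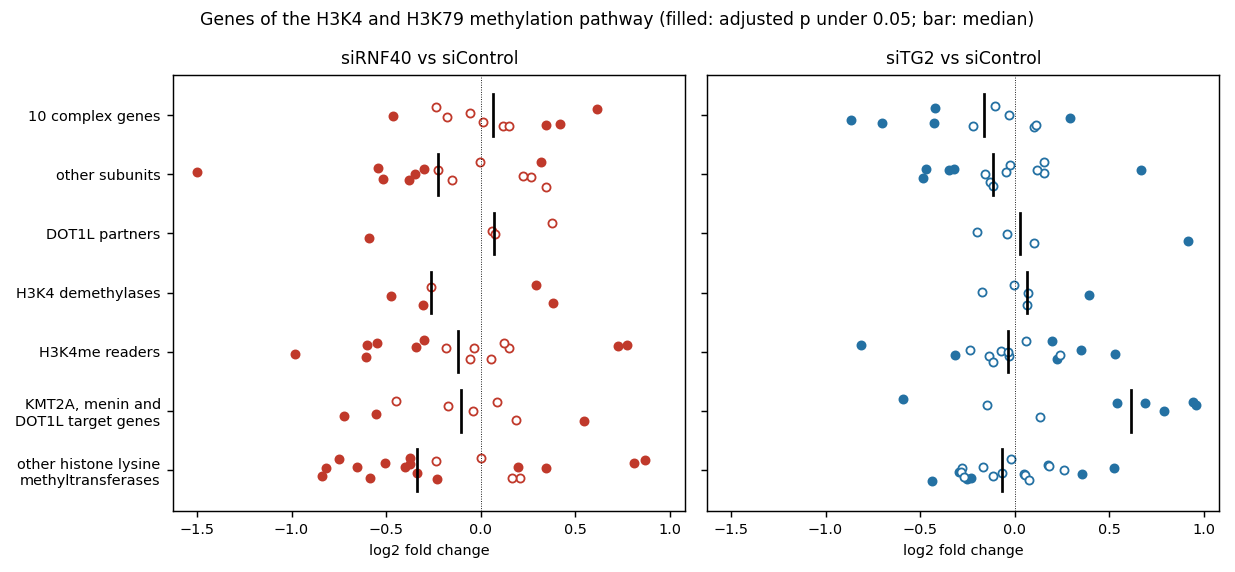
Log2 fold changes of the 10 genes and of the genes in the pathway lists, for siRNF40 and siTG2 against siControl. The list of the H2B ubiquitin ligase and the PAF1 complex is not drawn. Filled points mark genes that passed limma's adjusted p of 0.05, and bars mark list medians. The list of genes known to need KMT2A, menin or DOT1L has a median of 0.616 in siTG2, and WDR82 is the lowest of the other subunits in siRNF40 at -1.502.

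**Figure D5:**
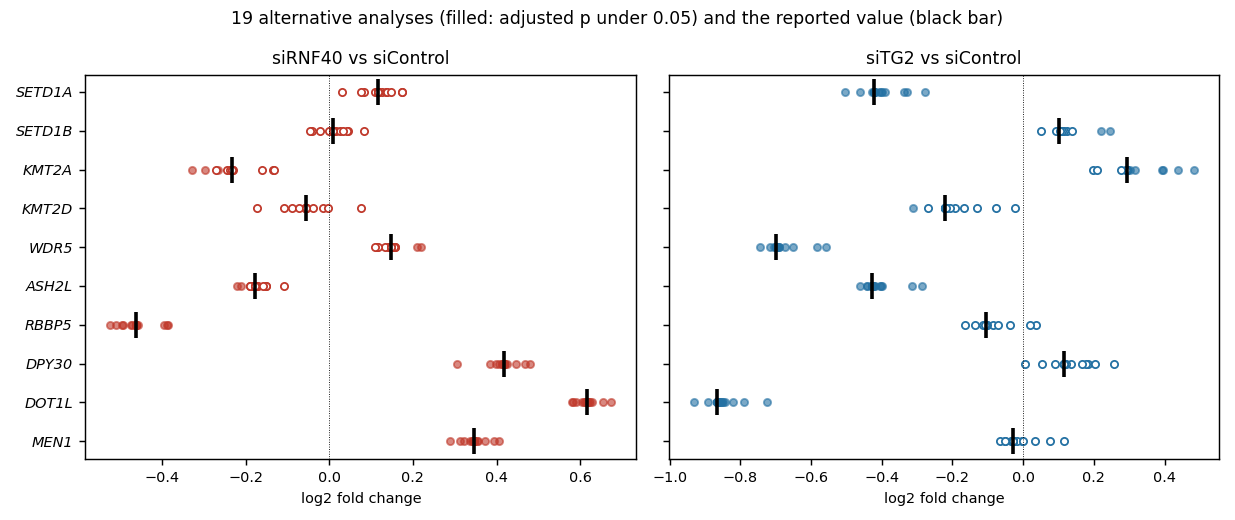
Log2 fold changes of the 10 genes under 19 alternatives (points, filled where the adjusted p was under 0.05) and as reported (black bars), for siRNF40 and siTG2 against siControl. For DOT1L every alternative lies above 0 in siRNF40 and below 0 in siTG2, and the points of SETD1B in siRNF40 lie on both sides of 0.

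The scaling of the libraries bears on the siTG2 comparison. With every library set to the same total, the median log2 fold change of all genes in siTG2 moved by 0.142, and 67.2% of the calls were then increases against 40.9% before. Quantile normalization gave 50%. In siRNF40 against siTG2 the median moved by -0.175 and the share of increases from 50% to 34.1%. DOT1L, WDR5, ASH2L and SETD1A fell in siTG2 under both of these scalings as well. The authors' own DESeq2 tables, deposited with the counts, made the same calls for all 10 genes: 3 higher and 1 lower in siRNF40 and 1 higher and 4 lower in siTG2.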

How the data were processed

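The deposited tables hold 9 libraries. Per the submitters' processing notes, Trim Galore 0.4.1, STAR 2.7.0, HTSeq 0.12.4 and DESeq2 were used, with builds hg19 and hg38. The gene positions and symbols come with the table. Its headers name no build, and the positions were taken as hg19 because they match that build. The main table is a signal per gene, the authors' read counts divided by DESeq2 size factors. Whole reads could be recovered from it for 100% of values, within 0.001 reads. The authors also deposited DESeq2 comparisons with log2 fold changes, a Wald score and p-values, used here only for the calls on the 10 genes. The mapping filters and the strand setting are not given in the sources used here.

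Values were taken as log2(value + 1). Genes with a mean of at least 10 (17663 of 63677) were fitted with limma 3.58.1, with an intensity trend, in R 4.3.3 over all 9 libraries with a mean for each group, and p-values were adjusted over all of them by Benjamini-Hochberg. The self-test used data with known changes. Alternatives were pseudocounts of 0.5 and 10, no filter, a mean of at least 50, equal totals, quantile normalization, edgeR 4.0.16 and DESeq2 1.42.0 on the recovered reads, fits of 6 libraries, a replicate block, and leaving out each library. Replicate numbers were not used to pair the libraries in the main fit. Exon lengths and transcripts come from GENCODE 29.

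The members and gene lists were chosen with earlier results of these data known. All 10 genes are named, with RNF40, RNF20 and TGM2. From each list up to 4 genes that passed and had a mean of at least 50 are named per comparison, by size of change, with up to 2 that did not pass; overlapping genes and the 3 genes most like DOT1L were named by rule. HCT116 was checked with markers of epithelial cells, fibroblasts and blood.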

Additional observations from a re-analysis of the deposited data

How the results depend on the processing

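Of 570 results of the 10 genes under the 19 alternatives, 535 kept their direction and their side of the threshold, 9 lost the call, 15 gained it and 11 changed sign. The calls for DOT1L, DPY30, MEN1 and RBBP5 in siRNF40 and for DOT1L, WDR5, ASH2L and SETD1A in siTG2 passed in all 19. The closest to the threshold among these was SETD1A, with a highest adjusted p of 0.043. No sign change touched a call. SETD1B in siRNF40 turned to -0.0231 with equal totals and -0.000325 with edgeR, and ranged from -0.0464 to 0.0458 with a library left out, being -0.0405 without siControl replicate 3. KMT2D in siRNF40 ranged from -0.172 to 0.0761 with a library left out, the latter without siRNF40 replicate 3, and turned to -0.0124 in siRNF40 against siTG2 with equal totals. In siTG2, RBBP5 turned to 0.0369 with equal totals and 0.0178 with quantile normalization, and MEN1 to 0.114 and 0.0755, with a range of -0.0665 to 0.0323 with a library left out, the upper end without siTG2 replicate 1. The cause was not tested. With a library left out, 4 to 7 of the 10 genes passed in siRNF40, 4 to 6 in siTG2 and 7 to 9 between the knockdowns. The 7 came without siRNF40 replicate 2, with 4 higher and 3 lower. Over all genes the ranges were 6967 to 8073, 4453 to 6150 and 8396 to 9345, and RNF40 and TGM2 ranged from -2.47 to -2.36 and from -2.81 to -2.13. Deviations of libraries with the same replicate number correlated between -0.0754 and 0.0813, and those with different numbers between -0.0793 and 0.0916. Same-number pairs thus looked like other pairs. With 3 libraries a group this cannot settle whether they share a culture or a batch. A replicate block changed no call of the 10 genes (4, 5 and 8 calls) and left 7735, 5164 and 9203 calls over all genes. With 3 libraries a group, the printed intervals give the range around each estimate for the genes that did not pass. They are per gene and not adjusted over all genes. An interval can therefore exclude no change although the gene did not pass.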
